A study of Rattus norvegicus with 8 samples.

Results

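Genes of cell-cell junctions were followed in rat nucleus pulposus cells in which HuR, the RNA-binding protein encoded by Elavl1, was knocked down. They are the cadherins and protocadherins, catenins, nectins, desmosomal proteins, claudins, occludin and MARVEL proteins, junctional adhesion molecules, zonula occludens proteins, connexins and pannexins. They were picked by a pattern of gene symbols with 1 symbol left out by name, and number 82 of the 13536 genes in the deposited table. The pattern itself uses no measured value, but it was drawn up with earlier results of these data known. The nucleus pulposus is the soft centre of the intervertebral disc. Primary cultures were grown out of explants from Wistar rat spines, and each received a short hairpin RNA by lentivirus. The hairpin had no target in the ShCTR group (MISSION PLKO.1 non-target) and was directed against HuR in the ShHuR group. Both groups had 4 libraries, and all 8 cultures spent the last 24 h at 1% O2 before total RNA was taken. How many hairpins were used, and whether the replicates came from separate animals or cultures, is not stated, so p-values reflect only how much these libraries vary, which may be technical.

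Cadherins bind each other across the gap between cells and are tied to actin by catenins, and nectins add a second adhesive system at the same adherens junctions. Desmosomes use their own cadherins, the desmocollins and desmogleins, which plakoglobin, plakophilins and desmoplakin couple to intermediate filaments. Claudins and occludin form tight junctions over a scaffold of zonula occludens proteins, while connexins form the channels of gap junctions, through which nucleus pulposus and notochordal cells are known to be coupled. HuR is known to bind AU-rich stretches of many mRNAs and to affect their stability and translation.

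Recovered reads per library ran from 6797360 to 12179515, and each ShHuR library was shallower than each ShCTR library. Elavl1, the target, was at 554.8, 699.3, 582.5 and 644.3 normalized counts in the ShCTR libraries 1 to 4 and at 63.8, 6.06, 8.36 and 49.6 in ShHuR 1 to 4, with no overlap. It fell by 4.84 on the log2 scale (SE 0.55; adjusted p = 0.00663 in limma with replicate number as a block and 0.126 without it). Libraries with the same replicate number deviated together from their group means, although those of numbers 2 and 3 also resembled each other. Replicate 1 of both groups often stood apart from the rest. Fold sizes, errors and adjusted p-values below are therefore from limma with replicate number as a block (blocked limma), and "rose" and "fell" mean an adjusted p under 0.05 there over all tested genes. The main fit had no block. There limma called 0 of 11847 genes, and 978 (8.26%) had an unadjusted p under 0.05. Without a block edgeR called 0 genes and DESeq2 248 (2.09%). For edgeR, 1010 (8.53%) had an unadjusted p under 0.05. Of the junction genes each of these fits called 0. Of 18 markers of nucleus pulposus and notochordal cells 15 were in the table and 14 were tested, of which 0 rose and 3 fell (Acan, Sox6 and Car12). The shares over all tested genes were 7.16% and 8.05%. Acan, the gene of the main proteoglycan of the disc, was at 449.3, 134.7, 224.6 and 72.6 normalized counts in ShCTR and 211.2, 47.5, 59.5 and 14.2 in ShHuR, and fell by 1.69 (SE 0.21; adjusted p = 0.0085 in blocked limma). Col2a1, the cartilage collagen gene, was at 21.0 or below in every library. The summed level of these markers was 48700 to 97490 normalized counts in ShCTR and 22442 to 103309 in ShHuR. Vim, which was not called, made up most of it, at 42070.9 to 89885.8 in ShCTR and 16526.1 to 95209.5 in ShHuR. The sum thus says little about the other markers, and its part in the junction results was not tested. Because these are bulk samples, fewer cells of a type and less RNA per cell cannot be told apart.

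Of the 82 junction genes 64 passed the filter on low values, and 10 of the 64 were called: 7 rose and 3 fell. The genes that rose were Dsp, Cdh23, Pcdh7, Nectin3, Pkp1, Pcdh1 and Pkp4, and those that fell were Cdh13, Cdh11 and Tjp1. The share called was 15.6%, against 15.2% of all tested genes. Of all tested genes 7.16% rose and 8.05% fell. The median log2 fold change was 0.08 over the 64 and 0.01 over all tested genes. All 10 called genes moved the same way in each of the 4 same-numbered pairs of libraries. So did 27 of the 64 tested genes, these 10 among them. The blocked test favours such genes, so their agreement over pairs adds no support to the calls. Of the 10, 8 moved least in pair 1, Dsp and Tjp1 being the exceptions. The calls depended on having all pairs from 2 to 4: blocked limma called 16 of the 64 without pair 1, where it called 23.9% of all tested genes, and 0 of the 64 without pair 2, pair 3 or pair 4. Without pair 4 it called 0 of all tested genes as well, and without pairs 2 and 3 it called 62 and 523. Blocked edgeR called the same 10 (15.6% of all tested genes), and blocked DESeq2 called these and Pcdh9 (17.3%). After quantile normalization blocked limma called 8 of the 10, and without a mean-variance trend it called 1, Dsp, with 573 of all tested genes. Values given below for 1 left-out library come from the fit without the block. In the authors' deposited table the same 10 junction genes have an adjusted p under 0.05, as do 16.3% of the genes given one there.

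**Figure D1:**
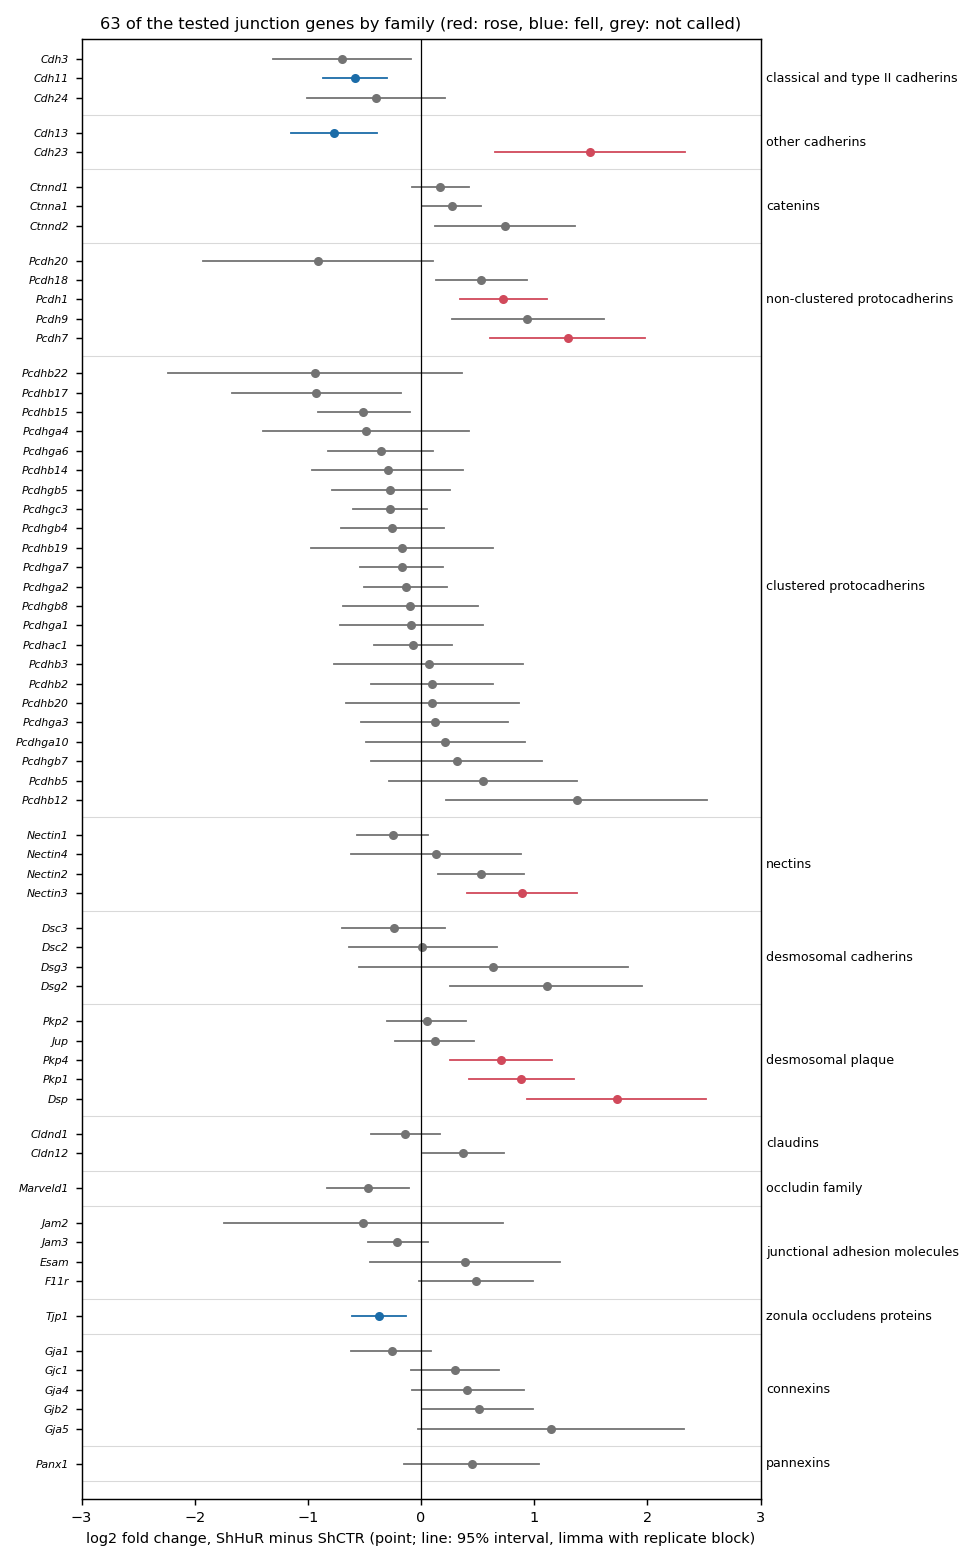
Log2 fold change (ShHuR minus ShCTR, x axis) of 63 of the 64 tested junction genes, grouped by family on the y axis. Points are estimates and lines 95% intervals from limma with the replicate block. Red genes rose (7), blue genes fell (3), and the intervals of the clustered protocadherins all belong to genes that were not called.

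Genes of the desmosomal plaque made up 3 of the 7 that rose. Of 5 tested members 3 rose and 0 fell, against 7.16% and 8.05% of all tested genes. The family is small, and attention was drawn to it after the calls were seen. The log2 fold changes of all 5 lay above 0, with a median of 0.71. Dsp (ENSRNOG00000013928) encodes desmoplakin, which anchors intermediate filaments to desmosomes. It was at 2.80, 18.3, 29.2 and 7.17 normalized counts in ShCTR 1 to 4 and at 15.2, 29.3, 176.5 and 24.3 in ShHuR 1 to 4. The groups overlapped, and ShHuR replicate 3 lay far above the other libraries. Means were 14.4 ± 11.9 and 61.3 ± 77.0 (SD, n = 4), and the difference was 1.73 on the log2 scale (SE 0.34; blocked limma, adjusted p = 0.022). Leaving out pair 3 gave 1.46, and leaving out ShHuR replicate 3 alone gave 1.00.

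Pkp1 (ENSRNOG00000010076) encodes plakophilin 1, an armadillo protein of the plaque that clusters desmosomal proteins. Normalized counts of Pkp1 were 2121, 1197, 844.6 and 1316 in ShCTR 1 to 4 and 2668, 1629, 2187 and 3438 in ShHuR 1 to 4. Each ShHuR library exceeded its same-numbered control, while the groups overlapped because ShCTR replicate 1 was high. Pkp1 rose by 0.88 (SE 0.20; blocked limma, adjusted p = 0.0298), with 0.33 and 0.44 in pairs 1 and 2 and 1.37 and 1.39 in pairs 3 and 4. Pkp4 (ENSRNOG00000005504), a plakophilin that is also found at adherens junctions, had 184.0, 303.2, 286.7 and 318.1 normalized counts in ShCTR and 218.8, 439.3, 808.4 and 470.9 in ShHuR. It rose by 0.71 (SE 0.19; blocked limma, adjusted p = 0.0475). After quantile normalization Pkp4 was not called, and its log2 fold change was 0.45 without pair 3 and 0.42 without ShHuR replicate 3. Pkp2 and Jup, which encodes plakoglobin, had log2 fold changes of 0.05 (95% interval -0.30 to 0.40) and 0.12 (-0.23 to 0.47).

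The promoters of these 3 plaque genes are shown because the genes rose together and were the only family with 3 called members. They are RefSeq sequences of the GRCr8 build, running from 250 bases before to 50 bases after the annotated start, written 5′ to 3′ on the strand of the gene. Capitals mark matches, on either strand, to 3 motifs: the AP-1 motif TGANTCA, the Snail-type E-box CACCTG and the hypoxia response core ACGTG. None of the 3 motifs contains another.
Dsp, chr17:26877072-26877371, minus strand: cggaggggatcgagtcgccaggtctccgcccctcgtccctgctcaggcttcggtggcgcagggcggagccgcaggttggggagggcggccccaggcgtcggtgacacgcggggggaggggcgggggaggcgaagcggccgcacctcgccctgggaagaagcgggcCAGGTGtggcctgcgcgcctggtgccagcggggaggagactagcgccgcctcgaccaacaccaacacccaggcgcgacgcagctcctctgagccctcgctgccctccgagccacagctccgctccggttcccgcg
Pkp1, chr13:49909113-49909412, minus strand: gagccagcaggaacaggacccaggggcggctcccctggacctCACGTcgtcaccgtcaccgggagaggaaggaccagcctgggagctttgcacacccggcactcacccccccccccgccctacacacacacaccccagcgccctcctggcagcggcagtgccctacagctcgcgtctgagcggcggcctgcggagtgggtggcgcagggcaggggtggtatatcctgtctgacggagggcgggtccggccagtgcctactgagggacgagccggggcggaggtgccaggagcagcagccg
Pkp4, chr3:64040745-64041044, plus strand: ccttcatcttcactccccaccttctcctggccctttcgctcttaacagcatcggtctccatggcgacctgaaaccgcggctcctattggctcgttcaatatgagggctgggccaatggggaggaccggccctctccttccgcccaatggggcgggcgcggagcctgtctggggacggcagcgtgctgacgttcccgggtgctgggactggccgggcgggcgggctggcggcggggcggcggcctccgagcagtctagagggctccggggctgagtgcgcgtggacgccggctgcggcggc
The Dsp window holds 1 Snail-type E-box, the Pkp1 window 1 hypoxia response core and the Pkp4 window none of the 3 motifs. In 27457 rat promoter windows of that length 18.7% hold the E-box, 19.7% the hypoxia response core and 7.33% the AP-1 motif. Among the 58 junction genes with a promoter entry the shares were 19%, 15.5% and 6.9%. Base composition was 75.0% G and C in Dsp, 71.3% in Pkp1 and 70.0% in Pkp4, against a median of 52.3% over all windows. This was not particular to the plaque genes. Among the other called genes with an entry Pcdh1 was at 76.3%, Cdh23 at 74.7%, Nectin3 at 73.3%, Pcdh7 at 57.7% and Tjp1 at 33.7%.

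Of the desmosomal cadherins 4 were tested and 0 were called, against 15.2% of all tested genes. Dsg1 was too low to test, at 0 in the 4 ShCTR libraries and at most 10.45 normalized counts in ShHuR. Dsg2, the desmoglein of most desmosome-bearing tissues, was at 26.2, 0, 0.91 and 31.4 normalized counts in ShCTR and 41.0, 1.01, 6.27 and 57.7 in ShHuR. It was thus high in replicates 1 and 4 of both groups and near 0 in replicates 2 and 3. Its log2 fold change was 1.11 (95% interval 0.26 to 1.95; blocked limma, adjusted p = 0.0779). Dsg3 showed the opposite layout, with 21.2 and 31.0 normalized counts in ShCTR replicates 2 and 3 and 0.93 and 0 in replicates 1 and 4. The desmocollin genes Dsc2 and Dsc3 had log2 fold changes of 0.01 (95% interval -0.64 to 0.67) and -0.24 (-0.70 to 0.21). That of Dsc2 was below 0 in edgeR with the block, at -0.06. In the RefSeq gene table the 5 measured desmosomal cadherins lie within a run of 7 protein-coding genes that are all desmocollins and desmogleins.

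Markers of epithelial cells, in which desmosomes are abundant, are given beside these genes. Of 9 markers 2 were in the table, Krt7 and Krt8, and their summed level ran from 69.6 to 186.4 normalized counts in ShCTR and from 133.7 to 212.7 in ShHuR. Krt7, a keratin of simple epithelia, rose by 1.49 (SE 0.28; blocked limma, adjusted p = 0.019), while Krt8 had a log2 fold change of -0.20. Krt8 is also a marker of notochordal cells. The part of such cells in the plaque genes' rise was not tested.

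**Figure D2:**
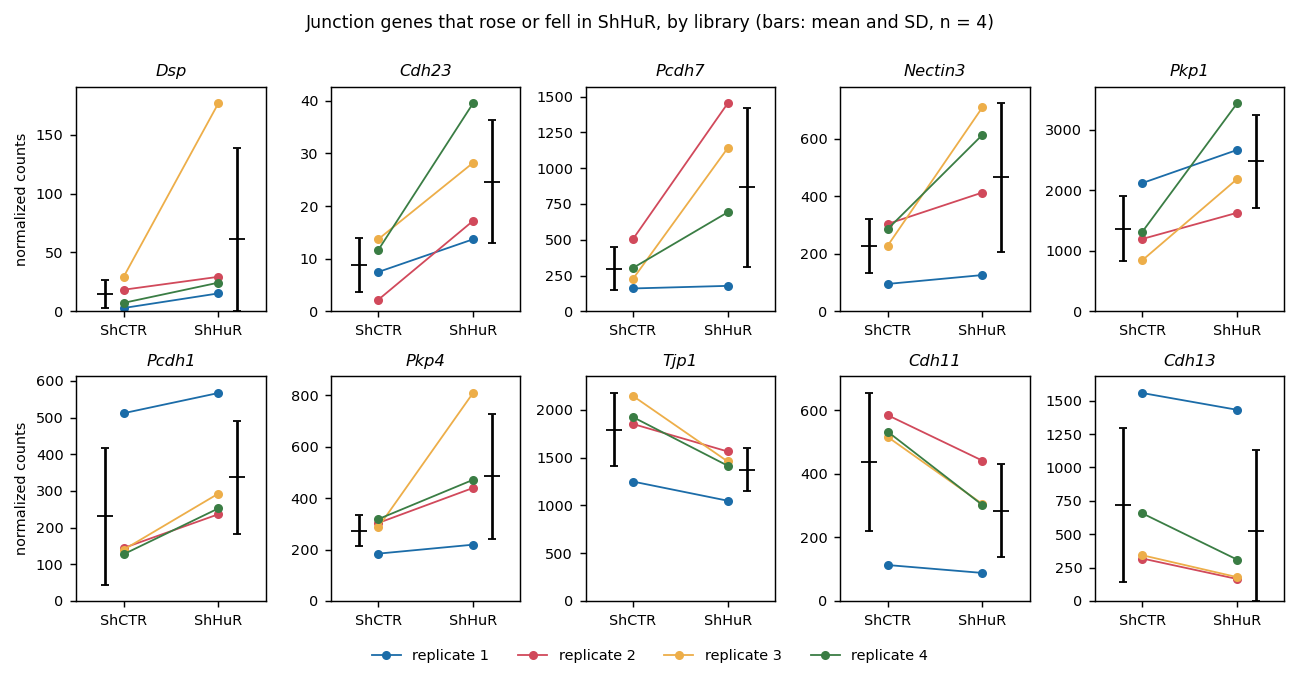
Normalized counts (y axes, each starting at 0) of the 10 called junction genes in ShCTR and ShHuR libraries. Coloured points are libraries, lines join the same replicate number, and black bars give the mean and SD of 4 libraries, with lower ends stopped at 0. Every line rises for Dsp, Cdh23, Pcdh7, Nectin3, Pkp1, Pcdh1 and Pkp4 and falls for Tjp1, Cdh11 and Cdh13.

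Among the classical and type II cadherins Cdh11 fell. Cdh11 (ENSRNOG00000013481) encodes the cadherin of osteoblasts and other mesenchymal cells. It was at 113.0, 584.3, 515.9 and 532.3 normalized counts in ShCTR 1 to 4 and at 88.1, 441.3, 305.0 and 301.8 in ShHuR 1 to 4. Replicate 1 was low in both groups, and the groups overlapped. The mean went from 436.4 ± 217.5 to 284.1 ± 145.9 (SD, n = 4), or -0.58 on the log2 scale (SE 0.12; blocked limma, adjusted p = 0.0254). It was -0.10 without ShHuR replicate 1, -1.15 without ShCTR replicate 1 and -0.36 without ShCTR replicate 2. Cdh3, the placental cadherin, had the reverse layout over replicates, at 713.6 and 633.6 normalized counts in replicate 1 of ShCTR and ShHuR and between 78.3 and 380.9 elsewhere. Its log2 fold change was -0.70 (95% interval -1.31 to -0.09; blocked limma, adjusted p = 0.108), with 0.03 in pair 2. Cdh24, also of type II, was at -0.40 (95% interval -1.01 to 0.21). Cdh6, Cdh15 and Cdh18 were too low to test, with maxima of 19.2, 19.8 and 21.9 normalized counts.

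Fibroblast markers are given beside Cdh11. Of 14 markers of annulus fibrosus and other fibroblasts 12 were tested. Of these 5 fell (Col1a1, Col3a1, Thy1, Pdgfrb and Mkx), 1 rose (Twist2) and 6 were not called. Of all tested genes 8.05% fell and 7.16% rose. Their summed level was 61165 to 210722 normalized counts in ShCTR and 47491 to 172972 in ShHuR. Dcn, Col1a1, Postn and Col3a1 carried most of that level. It was highest in replicate 1 of both groups, where Cdh11 was lowest, but single markers differed. Among the called markers Col1a1, Col3a1, Thy1 and Pdgfrb were highest there too, while Mkx and Twist2 were not, nor was the uncalled Scx. Whether the fall of Cdh11 belongs to a change in the share of such cells was not tested.

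Cdh13 and Cdh23, which lie outside the catenin-binding classes, moved in opposite directions. Cdh13 (ENSRNOG00000014371) encodes T-cadherin, which is held in the membrane by a lipid anchor and is known as an adiponectin receptor. It had 1557, 317.8, 342.4 and 656.0 normalized counts in ShCTR and 1431, 164.6, 178.6 and 309.9 in ShHuR. Replicate 1 was far above the other libraries in both groups. Cdh13 fell by 0.77 on the log2 scale (SE 0.16; blocked limma, adjusted p = 0.0264), with -0.12 in pair 1 and -0.94 to -1.08 in pairs 2 to 4. Leaving out ShHuR replicate 1, 2 or 3 gave -1.46, -0.43 and -0.46, and leaving out ShCTR replicate 1 gave -0.29. Cdh23 (ENSRNOG00000033087), the cadherin of the tip links of hair cells, was at 7.47, 2.20, 13.7 and 11.7 normalized counts in ShCTR and at 13.7, 17.2, 28.2 and 39.5 in ShHuR. These are low values, and the highest ShCTR library lay just above the lowest ShHuR library. Cdh23 rose by 1.49 (SE 0.36; blocked limma, adjusted p = 0.0342).

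The catenins inside the symbol pattern gave 0 calls in 3 tested genes, against 15.2% of all tested genes. Ctnna1, which links cadherins to actin, was at 3145 ± 445.3 normalized counts in ShCTR and 3778 ± 331.0 in ShHuR (SD, n = 4). Its log2 fold change was 0.27 (95% interval 0.01 to 0.53; blocked limma, adjusted p = 0.132), above 0 in 4 of 4 pairs. Ctnnd1, which stabilises cadherins at the membrane, had 0.17 (95% interval -0.08 to 0.42), and Ctnnd2, its neural relative, 0.74 (0.12 to 1.36; blocked limma, adjusted p = 0.097). Ctnnd2 was called without pair 1.

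Of the protocadherins outside the gene clusters, Pcdh7 and Pcdh1 rose. Of 5 tested members 2 rose and 0 fell, against 7.16% and 8.05% of all tested genes. Pcdh7 (ENSRNOG00000012367) had 159.7, 504.5, 226.4 and 302.9 normalized counts in ShCTR 1 to 4 and 177.8, 1452, 1140 and 691.7 in ShHuR 1 to 4. In replicates 2 to 4 each ShHuR library was above all ShCTR libraries, while both replicate 1 libraries were below the rest of their groups. Pcdh7 rose by 1.30 (SE 0.30; blocked limma, adjusted p = 0.0297), with 0.15 in pair 1 and 2.33 in pair 3. Pcdh1 (ENSRNOG00000060410), known for a role in airway epithelium, was at 511.8, 144.3, 139.7 and 127.3 in ShCTR and 566.8, 236.3, 292.5 and 252.2 in ShHuR. Apart from replicate 1, which was high in both groups, every ShHuR library lay above every ShCTR library. Pcdh1 rose by 0.72 (SE 0.16; blocked limma, adjusted p = 0.0295), again with 0.15 in pair 1. Without ShHuR replicate 1 the value was 0.44, and without ShCTR replicate 1 it was 1.20.

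Pcdh9 and Pcdh18 were higher in 4 of 4 pairs without passing, at 0.94 (95% interval 0.27 to 1.62; blocked limma, adjusted p = 0.0663) and 0.53 (0.13 to 0.94; adjusted p = 0.0784). DESeq2 with the block called Pcdh9. Pcdh20 had a log2 fold change of -0.91 (95% interval -1.93 to 0.11), and fell in blocked limma without pair 1, to -1.40 (adjusted p = 0.0462). Pcdh10 and Pcdh19 were too low to test. Pcdh10 was at 3.66 normalized counts or below in ShCTR and at 0, 13.1, 36.6 and 4.05 in ShHuR. Many protocadherins are best known from neural tissue. Of 9 Schwann and neural markers 4 were tested, and 0 rose and 2 fell, against 7.16% and 8.05% of all tested genes. The summed level of those markers was 2371 to 3965 normalized counts in ShCTR and 890.2 to 3474 in ShHuR.

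The clustered protocadherins differed between replicate numbers far more than between the groups. They lie in the alpha, beta and gamma clusters. In the alpha and gamma clusters alternative first exons join shared 3′ exons, whereas the beta genes are separate single-exon genes. In neurons each cell uses a few of these proteins, which gives it a surface identity. Of 28 measured members 23 passed the filter and 0 were called, also by edgeR and DESeq2 with the block. Over all tested genes the blocked fits called 15.2% in limma, 15.6% in edgeR and 17.3% in DESeq2. Log2 fold changes were above 0 in 8 and below 0 in 15, with a median of -0.13. Several of these signs changed when 1 library was left out. Pcdhgb4 was at 222.3, 7.32, 9.13 and 100.4 normalized counts in ShCTR 1 to 4 and at 200.6, 5.05, 7.31 and 91.1 in ShHuR 1 to 4. The layout was thus the same in both groups, high in replicates 1 and 4 and under 10 in replicates 2 and 3. Pcdhgb4 had a log2 fold change of -0.26 (95% interval -0.71 to 0.20). Pcdhb22 showed the opposite layout, with 8.41, 60.8, 44.7 and 7.17 normalized counts in ShCTR and 0, 48.5, 28.2 and 10.1 in ShHuR. Both were chosen for display after their values were seen.

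Of the variation (sum of squares) in log2 values of the 23 tested members, 84.8% lay between replicate numbers and 6.17% between groups. Over all tested genes the shares were 76.4% and 14.7%, and over the 64 tested junction genes 81.2% and 10.3%. The layout was thus not particular to the clusters. The share between replicate numbers was 91.9% for the desmosomal cadherins and 61.1% for the desmosomal plaque. With 4 replicate numbers against 2 groups, the first share is larger for unrelated values too. Deviations of same-numbered libraries from their group means had correlations of 0.87, 0.92, 0.71 and 0.81 across the 23 members for numbers 1 to 4, as a description over genes of the same libraries. In 15 of the 23 members the same replicate number was highest in both groups, or 65.2%, against 61.4% of all tested genes. The highest ShCTR value plus 1 was a median of 3.51 times the lowest plus 1 for these members, 3.13 times for the 64 tested junction genes and 1.90 times for all tested genes.

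Summed over the 28 members, the level was 2745, 1923, 1882 and 1268 normalized counts in ShCTR 1 to 4 and 2243, 1843, 1283 and 1328 in ShHuR 1 to 4. Pcdhgc3 made up much of that sum, at 1706, 937.3, 865.6 and 441.8 in ShCTR and 1374, 861.5, 520.2 and 465.9 in ShHuR, with a log2 fold change of -0.27 (95% interval -0.60 to 0.05). Pcdhb17 was the 1 junction gene of 64 whose groups did not overlap, with 16.1 to 22.7 normalized counts in ShCTR and 5.22 to 13.2 in ShHuR. Of all tested genes 5.6% had groups that did not overlap, 3.09% with ShHuR lower. Pcdhb17 had a difference of -0.93 on the log2 scale (SE 0.32; blocked limma, adjusted p = 0.0889). In the other direction Pcdhb12 was at 1.38 (95% interval 0.22 to 2.53; blocked limma, adjusted p = 0.097). Because alpha members, and gamma members, share those 3′ exons, how shared reads were assigned affects their values, and it is not given in the sources used here. Of the 28 symbols 23 were found in the RefSeq gene table, all within a run of 38 protein-coding genes on 1 chromosome.

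**Figure D3:**
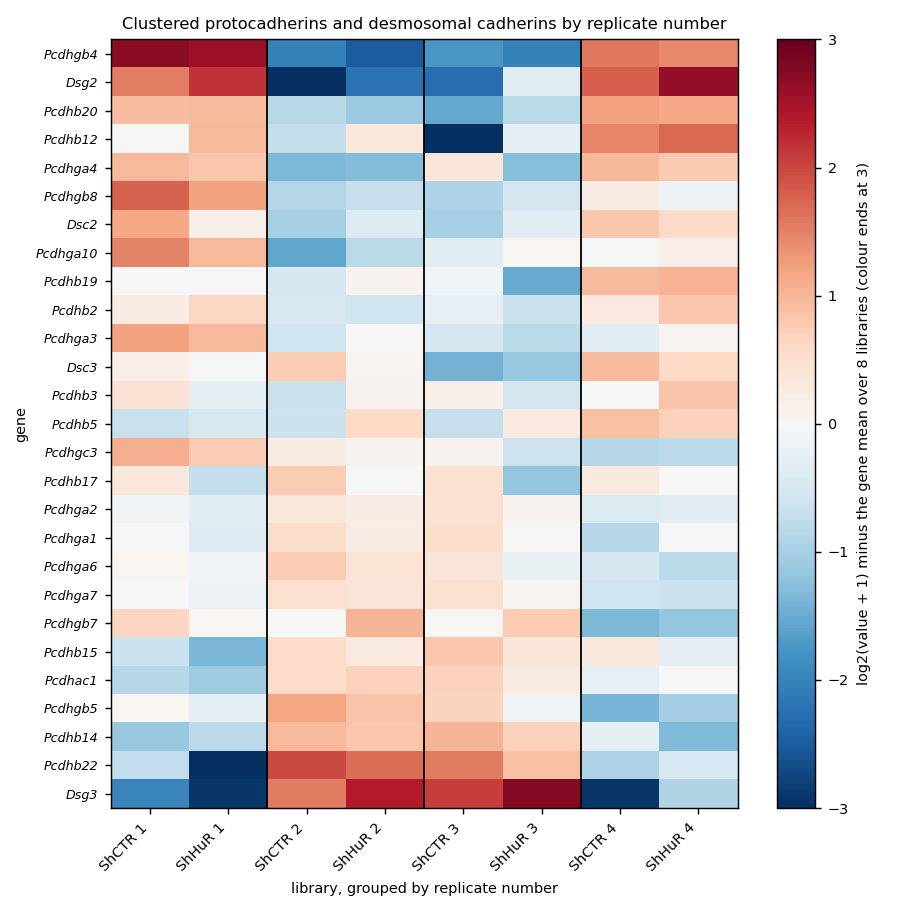
Deviation of log2(value + 1) from the mean of each gene over 8 libraries (colour, ending at 3 in either direction) for the 23 tested clustered protocadherins and 4 desmosomal cadherins. Libraries are grouped by replicate number on the x axis. Adjacent ShCTR and ShHuR columns share colours, as for Pcdhgb4, high in replicates 1 and 4, and Dsg3, high in replicates 2 and 3.

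Of the 4 nectins Nectin3 rose, against 7.16% of all tested genes. Nectin3 (ENSRNOG00000002176) encodes a nectin that binds other nectins across the cell gap. Normalized counts of Nectin3 were 95.3, 303.9, 228.3 and 285.9 in ShCTR 1 to 4 and 126.1, 413.1, 709.2 and 613.7 in ShHuR 1 to 4. Replicate 1 was low in both groups, and in replicates 2 to 4 each ShHuR library was above all ShCTR libraries. Nectin3 rose by 0.89 (SE 0.21; blocked limma, adjusted p = 0.0317), with 0.40 and 0.44 in pairs 1 and 2 and 1.63 and 1.10 in pairs 3 and 4. Without ShHuR replicate 1 it was 1.43, and without ShCTR replicate 1 0.52. Nectin2 went from 491.3 ± 127.0 to 713.4 ± 190.0 normalized counts (SD, n = 4), higher in 4 of 4 pairs, without passing (0.53 on the log2 scale, SE 0.17; blocked limma, adjusted p = 0.068). It was called without pair 1. Nectin1 was at -0.25 (95% interval -0.57 to 0.06) and Nectin4 at 0.13 (-0.62 to 0.88).

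Among the tight junction genes Tjp1 fell and no other tested member was called. Tjp1 (ENSRNOG00000011077) encodes the first zonula occludens protein to be described, a scaffold that joins claudins and occludin to actin and also binds connexins. It had 1249, 1851, 2144 and 1923 normalized counts in ShCTR 1 to 4 and 1049, 1563, 1459 and 1415 in ShHuR 1 to 4. The 3 control libraries other than replicate 1 lay above all ShHuR libraries. Tjp1 fell by 0.37 on the log2 scale (SE 0.10; blocked limma, adjusted p = 0.0485), between -0.24 and -0.55 in the 4 pairs. Tjp1 was not called after quantile normalization.

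Claudins, which set the permeability of tight junctions, were sparse. Of 5 measured genes of the claudin group, Cldn12 and the claudin-domain gene Cldnd1 were tested. Cldn12 was at 386.8 ± 64.4 normalized counts in ShCTR and 500.1 ± 71.6 in ShHuR (SD, n = 4), a log2 fold change of 0.37 (95% interval 0.02 to 0.73; blocked limma, adjusted p = 0.128). It was called without pair 1. Cldnd1 was at -0.14 (95% interval -0.44 to 0.17). Cldn4, Cldn15, Cldn23 and Ocln, the occludin gene, did not reach 10 normalized counts in 4 libraries. Cldn4 was at 3.58 or below in ShCTR and at 0, 4.04, 19.8 and 5.06 in ShHuR. Marveld1, a MARVEL-domain gene, was lower in 4 of 4 pairs without passing, from 1085 ± 416.9 to 848.8 ± 527.3 normalized counts (SD, n = 4). The difference was -0.47 on the log2 scale (SE 0.15; blocked limma, adjusted p = 0.0779), and Marveld1 was called without pair 1.

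Of 4 junctional adhesion molecules and relatives 0 were called, against 15.2% of all tested genes. F11r, which encodes JAM-A, was at 46.7, 79.1, 80.4 and 25.1 normalized counts in ShCTR and 50.1, 147.4, 155.6 and 25.3 in ShHuR. Replicates 2 and 3 were high in both groups, and only there did the ShHuR library lie well above its control. The log2 fold change of F11r was 0.49 (95% interval -0.02 to 0.99), that of Jam3 -0.21 (-0.47 to 0.06), that of Jam2 -0.51 (-1.74 to 0.72) and that of Esam, an endothelial adhesion molecule, 0.39 (-0.45 to 1.23). Of 10 endothelial markers, Esam among them, 4 were in the table, with a summed level of 260.7 to 569.8 normalized counts in ShCTR and 436.1 to 1432 in ShHuR. Flt1, a VEGF receptor gene, carried most of that level and rose by 1.16.

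None of the 5 tested gap junction genes was called, against 15.2% of all tested genes. Gja1, the connexin gene best known from disc cells, heart and bone, had 11255, 6330, 8319 and 11068 normalized counts in ShCTR 1 to 4 and 9233, 6955, 6048 and 8171 in ShHuR 1 to 4. The groups overlapped, and ShHuR replicate 2 was above its control whereas the other 3 were below theirs. Gja1 had a log2 fold change of -0.26 (95% interval -0.62 to 0.09; blocked limma, adjusted p = 0.257), an interval that leaves out a change of 1 in either direction. The other connexins had log2 fold changes above 0. They were 0.41 for Gja4 (95% interval -0.08 to 0.91), 0.30 for Gjc1 (-0.09 to 0.69) and 0.51 for Gjb2 (0.02 to 0.99; blocked limma, adjusted p = 0.134). These 3 were higher in 4 of 4 pairs, but 27 of the 64 tested junction genes moved the same way in all 4 pairs. Gjb2 was at -0.17 without ShHuR replicate 2.

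Gja5, a connexin gene of the heart's atria and of arteries, was at 39.2, 5.13, 120.5 and 40.3 normalized counts in ShCTR and 42.5, 53.5, 351.0 and 34.4 in ShHuR. Replicate 3 was high in both groups, and the estimate of 1.15 had an interval from -0.03 to 2.32. Gjb2 was high in replicate 2 of both groups, at 139.1 and 220.2 normalized counts, against 17.7 to 53.7 elsewhere. Gjb5 was too low to test. Panx1, which forms ATP-releasing membrane channels, was at 56.0, 55.7, 61.2 and 52.0 normalized counts in ShCTR and 47.1, 64.6, 156.7 and 72.9 in ShHuR. Controls were tightly grouped and ShHuR replicate 3 stood high. The log2 fold change of Panx1 was 0.45 (95% interval -0.15 to 1.04), and Panx2 was too low to test.

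**Figure D4:**
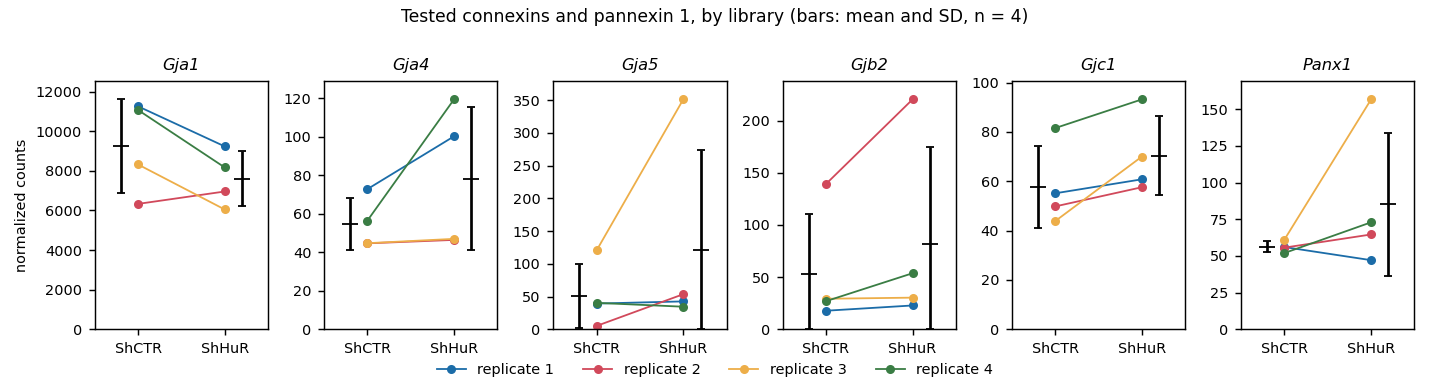
Normalized counts (y axes, each starting at 0) of the 5 tested connexins and Panx1 in ShCTR and ShHuR libraries. Coloured points are libraries joined by replicate number, and black bars give the mean and SD of 4 libraries, with lower ends stopped at 0. The lines of Gja1 cross, and single libraries stand high for Gja5 and Gjb2.

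Proteins that work with these junctions were read from 6 lists of partner genes, chosen by function with earlier results of these data known. The table held 75 partner genes, of which 69 were tested, and 5 rose and 6 fell (15.9%), against 15.2% of all tested genes. Their median log2 fold change was 0.04. Among 18 tested linkers of cadherins and nectins 1 rose and 2 fell. Ctnnb1, which encodes beta-catenin, the cadherin-binding protein that also acts in Wnt signalling, had 2866, 4694, 4017 and 4077 normalized counts in ShCTR and 1526, 2763, 2654 and 2866 in ShHuR. Each ShHuR library was below its control, and the groups met at about the level of ShCTR replicate 1. Ctnnb1 fell by 0.69 (SE 0.11; blocked limma, adjusted p = 0.0147). Lmo7, a protein of nectin-based junctions, fell by 0.75, and Ptprf, a receptor tyrosine phosphatase known to act on beta-catenin, rose by 0.73, or by 0.42 without ShHuR replicate 3 and 0.43 without ShCTR replicate 4.

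Among 20 tested scaffold and polarity genes of tight junctions 1 fell and 1 rose, against 8.05% and 7.16% of all tested genes. Prkci, the atypical protein kinase C of the polarity complex, was at 538.9, 680.3, 688.5 and 797.6 normalized counts in ShCTR and at 300.9, 317.1, 347.8 and 342.3 in ShHuR. The groups did not overlap, and the ShHuR libraries lay close together. Prkci fell by 1.03 (SE 0.11; blocked limma, adjusted p = 0.00517), by a similar amount in all pairs, from -0.84 to -1.22. Mpdz, a scaffold protein with many PDZ domains, rose by 0.41, with 0.63 without ShHuR replicate 1, 0.23 without ShHuR replicate 3 and 0.20 without ShCTR replicate 1. Of 2 tested nectin-like genes Cadm1 rose, from 23.4, 409.3, 249.3 and 60.9 normalized counts in ShCTR to 38.0, 952.4, 823.1 and 201.5 in ShHuR. Every ShHuR library exceeded its control, although levels differed widely between replicate numbers. Cadm1 rose by 1.33 (SE 0.19; blocked limma, adjusted p = 0.0115). Leaving out ShHuR replicate 1, 2 or 3 gave 2.28, 0.74 and 0.81, and leaving out ShCTR replicate 1 gave 0.60.

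Of 8 tested proteases that cut junction proteins, or subunits of such enzymes, 1 rose and 1 fell. For this list and the next ones, the shares over all tested genes were 7.16% and 8.05%. Adam17, a sheddase of many membrane proteins, rose by 0.86 (SE 0.14; blocked limma, adjusted p = 0.0139), from 2276 ± 509.0 to 4313 ± 1570 normalized counts (SD, n = 4). Adam15 fell by 0.64, or by 0.32 without ShHuR replicate 4. Of 10 tested transcription and splicing factors known to act on epithelial junction genes 1 rose and 1 fell. Snai2, a repressor of E-cadherin, was at 27.1 to 58.6 normalized counts in ShCTR and 7.31 to 25.3 in ShHuR, with no overlap, and fell by 1.35 (SE 0.30; blocked limma, adjusted p = 0.0276). Twist2 rose by 1.45, or by 0.94 without ShCTR replicate 2, while Zeb1, Zeb2, Snai1 and Twist1 were not called. Among 11 tested cadherin-superfamily genes outside the symbol pattern Fat1, a giant cadherin, fell by 0.76, from 6874 to 9462 normalized counts in ShCTR to 3694 to 5897 in ShHuR without overlap. Of 8 leukocyte markers 3 were tested and 0 were called, with a summed level of 333.9 to 992.8 normalized counts in ShCTR and 563.0 to 1290 in ShHuR.

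**Figure D5:**
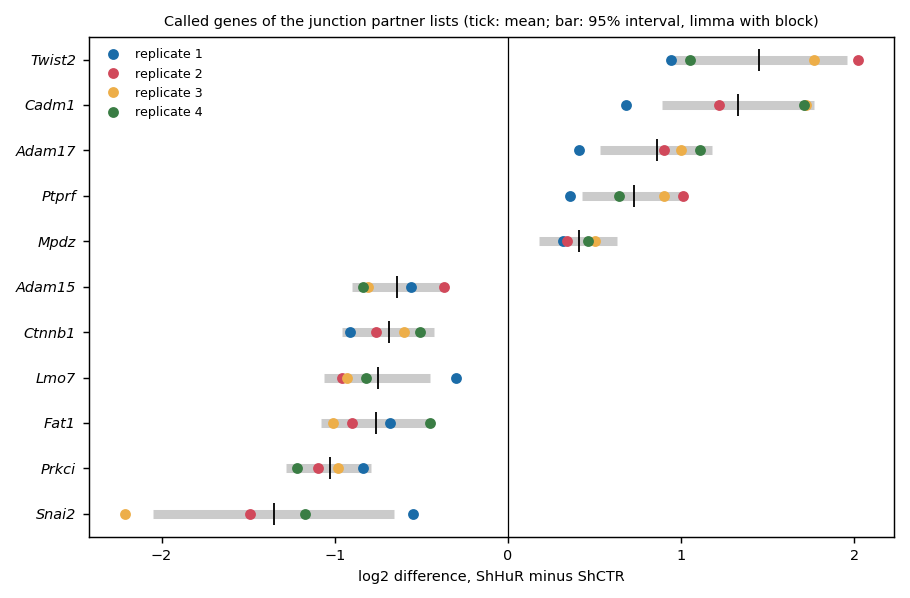
Log2 difference between ShHuR and ShCTR (x axis) for the 11 called genes of the partner lists (y axis). Coloured points are the 4 same-numbered pairs, the tick is their mean and the grey bar the 95% interval from limma with the replicate block. Prkci is below 0 by at least 0.84 in every pair, and all genes but Fat1, Ctnnb1 and Adam15 move least in replicate 1.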

How the data were processed

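RNA of 8 libraries was sequenced after depletion of ribosomal RNA, with stranded total-RNA libraries, per the labels' protocols. Per the file headers the deposited signal is normalized, and the values show that the authors took counts per gene and divided each library by 1 factor. No source used here names the aligner, counting program, genome build or annotation. In each column 100% of values were whole multiples of 1 step, to within 0.01 read, so the reads were recovered. The authors also deposited log2 fold changes and adjusted p-values, under column names that DESeq2 writes, per the file headers.

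In the sheet of all genes identifiers stand out of register with symbols: when 2114 rows were matched by values to the sheet of called genes, symbols matched in 2114 and identifiers in 3. Symbols were used as names, identifiers were taken from the sheet of called genes, and 21 symbols turned into dates, with 0.258% of the reads, were left unnamed. Of the 82 junction genes the RefSeq gene table (GRCr8) held 77 under the same symbol and 3 as a synonym.

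Values were analysed as log2(value + 1), which understates the change of low genes. Rows with at least 10 normalized counts in 4 of 8 libraries were tested (11847). The test was limma 3.58.1 (R 4.3.3, trended prior variance), two-sided, with Benjamini-Hochberg adjustment over all tested rows. It was also run on simulated data built with replicate effects. There, recovery of known changes was required only of the fit with the block. The main fit had no block. Replicate numbers were taken to pair libraries because deviations of same-numbered libraries correlated at 0.87, 0.78, 0.63 and 0.77 across genes, each over 0.1. Numbers 2 and 3 were less clearly told apart. ShCTR 3 correlated at 0.6237 with ShHuR 2 and at 0.6273 with ShHuR 3, and ShCTR 2 at 0.4266 with ShHuR 3. What a number stands for is not labelled. EdgeR 4.0.16 and DESeq2 1.42.0 were run on the recovered reads. Other alternatives changed the pseudocount, filter, normalization, trend and libraries.

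The genes, the lists and the rule for named genes were chosen with earlier results of these data known. Named were Elavl1, every called junction gene, junction genes with a role fixed by name, the extremes of each family and up to 3 called partner genes per list and direction. Values of 2 of the junction genes are not reported here, though counts over all junction genes include them. No gene lengths were used, so summed levels, and the part of a single gene in a sum, are not corrected for length.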

Additional observations from a re-analysis of the deposited data

Results flagged for a closer look

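In these groups of 4 libraries the highest or lowest value lay so far from the next that the gap, as a share of the range of the group, exceeded Dixon's 95% critical value for 4 values. This was examined in 128 groups (64 tested genes in ShCTR and in ShHuR) and met 12 times. For independent, normally distributed values chance meets it in about 1 of 20 groups. The values here are untransformed normalized counts, and same-numbered libraries deviate together, so that rate need not hold and no excess can be read from the count. No explanation was tested.

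Replicate 1 was set apart in 6 of these: Cdh11 was low in ShCTR replicate 1, at 113.0 normalized counts against 515.9 for the next library. Cdh13 was high in ShHuR replicate 1 (1431 against 309.9), and Pcdh1 in replicate 1 of both groups (511.8 against 144.3 in ShCTR and 566.8 against 292.5 in ShHuR). The clustered protocadherins Pcdhga3 and Pcdhgb8 were high in ShCTR replicate 1 (41.1 against 13.4) and ShHuR replicate 1 (56.2 against 21.3).

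Replicate 2 was high for Gjb2 in both groups, at 139.1 against 29.2 in ShCTR and 220.2 against 53.7 in ShHuR. In ShHuR replicate 3 Dsp reached 176.5 normalized counts against 29.3, and Gja5 351.0 against 53.5. In replicate 4 Pcdhb5 was high in ShCTR (21.5 against 6.59) and Jam3 low in ShHuR (363.6 against 585.0).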

How the results depend on the processing

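Without the replicate block limma called 0 junction genes, 0 partner genes and 0 of all tested genes, and these counts stayed 0 with other pseudocounts, no filter, quantile normalization, no trend and edgeR. DESeq2 without the block called 0 junction genes, 2 partner genes and 248 of all tested genes. With the replicate block limma called 10 junction genes, 11 partner genes and 1802 of all tested genes. The blocked counts, in that order, were 10, 12 and 1845 in edgeR, 11, 14 and 2053 in DESeq2, 1, 6 and 573 without a trend, 9, 11 and 1770 with no filter, 10, 11 and 1787 with a pseudocount of 0.5, 10, 11 and 1831 with a pseudocount of 4, and 8, 11 and 1648 after quantile normalization. EdgeR with the block called the same 10 junction genes as limma. Without a trend only Dsp was called among them. Leaving out 1 library or 1 replicate number gave 0 to 16 junction genes, 0 to 21 partner genes and 0 to 2831 of all tested genes, the highest counts with the block and without replicate 1. Without the block, leaving out replicate 1 of both groups gave 1, 2 and 315, and leaving out ShHuR replicate 1 gave 0, 1 and 105. With the block, leaving out replicate 2 gave 0, 1 and 62, replicate 3 gave 0, 7 and 523 and replicate 4 gave 0 in each. The cause of these differences was not tested.

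None of the 10 called junction genes or 11 called partner genes changed direction under any alternative run. These genes moved the same way in every pair, so leaving out a replicate number could not have reversed them. Leaving out 1 library or 1 replicate number moved 6 of the 10 and 5 of the 11 by more than 1.5 times, as given beside each gene. Changes of sign were followed only for genes chosen by the rule for named genes. Of those, the log2 fold changes of these uncalled genes crossed 0 when libraries were left out, over the ranges Cldnd1 -0.36 to 0.01, Ctnnd1 -0.01 to 0.32, Dsc2 -0.32 to 0.40, Dsc3 -0.76 to 0.09, Dsg3 -0.23 to 1.72, Gjb2 -0.17 to 1.13, Jam2 -1.07 to 0.52, Jup -0.10 to 0.46, Nectin4 -0.22 to 0.49, Pcdhb22 -1.65 to 0.23, Pcdhgb4 -1.16 to 0.60, Pcdhgc3 -0.61 to 0.04 and Pkp2 -0.13 to 0.18. The list is thus not complete. Other clustered protocadherins crossed 0 as well, such as Pcdhac1, at -0.37 without ShCTR replicate 1 and 0.27 without ShHuR replicate 1. With the block, leaving out replicate 2 gave -0.12 for Nectin4, -0.18 for Dsc2 and 0.06 for Jam2, leaving out replicate 3 gave -0.00024 for Nectin4 and -0.21 for Dsc2, and leaving out replicate 1 gave -0.06 for Pkp2. Nectin4 was also at -0.01 in edgeR without the block, and Dsc2 at -0.06 in edgeR and -4.2e-05 in DESeq2 with the block and at -0.27 and -0.26 without it. The 18 untested genes had low values in these libraries, and whether deeper sequencing would allow a test was not examined.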
